A study of Sus scrofa with 5 samples.

Results

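Plasma was 1 of 5 body fluids of the pig in which the miRNA cargo of exosomes was sequenced, and it was set here against serum, semen, urine and bile. The plasma miRNAs were taken as all names with 10 or more counts in the plasma library. They numbered 161 of the 411 mature miRNA names listed, and of the 237 names listed above 0 in at least 1 fluid. The fluids had all been taken from pigs of the Chinese Rongchang breed on day 180 after birth, with no treatment or genotype named in the labels. Each fluid was represented by 1 library, and the labels give neither the number of animals behind a library nor whether fluids shared animals. Every difference below is therefore between libraries, has no replicate check and carries no p-value. Intervals are exact 95% intervals for counting error only, since reads amplified by PCR without molecular identifiers are not independent molecules.

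Exosomes are small vesicles shed by most cell types, and blood plasma collects them from blood cells, vessel walls, liver and other organs. A miRNA is cut from a hairpin precursor, usually by Drosha in the nucleus and Dicer in the cytoplasm. One strand of the resulting duplex, the 5p or the 3p arm, is then loaded onto an Argonaute protein and guides it to target mRNAs. Plasma is blood from which cells have been removed without clotting, whereas serum is collected after a clot has formed. No sequences of the miRNAs were at hand, so they are identified by their names, with the prefix ssc- left out. Where the RefSeq annotation of another pig assembly, Sscrofa11.1, places a miRNA gene within the span of a longer gene, that host is named without coordinates. In it 156 of the 161 names could be matched to a gene.

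Listed miRNAs made up 16.01% of the reads to which the authors scaled the plasma library, and 0.246% to 21.2% in the other fluids. The plasma library held 1153755 miRNA counts, against 473168 in serum, 2284926 in semen, 26522 in urine and 1673239 in bile. No library held a count from 1 to 9, so a value listed at 0 stands for anything up to 9 reads. In ratios such a value was set to 10 counts, which makes the ratio a lower bound apart from counting error. Because of its small library, 10 counts in urine correspond to 377 CPM (the count scaled to a listed miRNA total of 1000000), against 8.67 CPM in plasma. At the lower edge of the plasma set stood miR-218b, miR-222 and miR-339-5p with 10 counts each, and every name outside it was listed at 0 in plasma. The male germ line names miR-34c and both arms of miR-202 served as markers of a tissue foreign to plasma. All were listed at 0 in plasma, but miR-34c alone, at 264 CPM in semen, could have been seen there. It was listed at 0 in serum, urine and bile too. miR-202-5p stood at 4.81 CPM in semen, below the level of 10 counts in plasma. miR-202-3p was listed at 0 in all 5 fluids.

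The plasma library was dominated by miR-378, miR-320 and miR-423-5p. Together they took 83.9% of its counts (83.8 to 84.0). In serum the same 3 miRNAs took 3.86% (3.81 to 3.92) and in urine 1.40% (1.26 to 1.55). In semen and bile they took 0.256% (0.249 to 0.262) and 0.245% (0.237 to 0.252). miR-378, known for regulating mitochondrial energy metabolism, is encoded by 2 genes, placed within PPARGC1B, a coactivator of the same metabolism, and within BCAS3. Its level was 413974 CPM in plasma, 14325 CPM in serum, 12518 CPM in urine, 745 CPM in bile and 737 CPM in semen. miR-320 is made from a capped transcript without Drosha, and its gene lies within the span annotated for POLR3D. It stood at 256353 CPM in plasma, against 9614 in serum, 905 in urine, 754 in bile and 423 in semen. miR-423-5p, whose gene lies within NSRP1, stood at 168632 CPM in plasma, 14680 CPM in serum, 1398 CPM in semen, 949 CPM in bile and 603 CPM in urine. Plasma was the highest fluid for each of them, and serum was the second. Whether more vesicles or cells carried a miRNA, or each carried more copies of it, cannot be told apart in libraries of whole fluids.

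Ratios between these miRNAs do not depend on the library total. For each count of miR-378 there were 0.619 counts of miR-320 in plasma (0.616 to 0.622), 0.671 in serum (0.646 to 0.697) and 0.574 in semen (0.529 to 0.621). The same ratio was 1.01 in bile (0.935 to 1.10) and 0.0723 in urine (0.0457 to 0.109). miR-423-5p reached 0.407 counts per count of miR-378 in plasma (0.405 to 0.410), against 1.02 in serum (0.991 to 1.06), 1.27 in bile, 1.90 in semen and 0.0482 in urine (0.0272 to 0.0794). So miR-320 and miR-378 stood in a similar proportion in plasma, serum and semen, while miR-423-5p was lower relative to miR-378 in plasma than in serum, semen and bile and higher than in urine. miR-378b-3p, a close relative of miR-378 whose reads may not be separable from it, came to 0.0387 counts per count of miR-378 in plasma (0.0381 to 0.0393) and to between 0.0249 and 0.0746 in the other fluids.

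Because 3 miRNAs filled most of the library, each level is given below also as a remainder CPM, that is, the count scaled to 1000000 of the miRNA counts left when these 3 are taken out of the total of every fluid. The plasma remainder held 185802 counts, and the other remainders 454895 in serum, 2279081 in semen, 26150 in urine and 1669145 in bile. This change of total raised every other plasma level by 2.63 on the log2 scale. With all counts, 2 miRNAs were enough to reach 50% of the plasma library and 7 to reach 90%. Without the 3 leading miRNAs it took 5 to reach 50% and 34 to reach 90%. The remainder was then spread about as widely as that of serum, where 6 and 31 were needed, and more widely than those of bile with 3 and 14, urine with 3 and 20, or semen with 1 and 11.

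**Figure D1:**
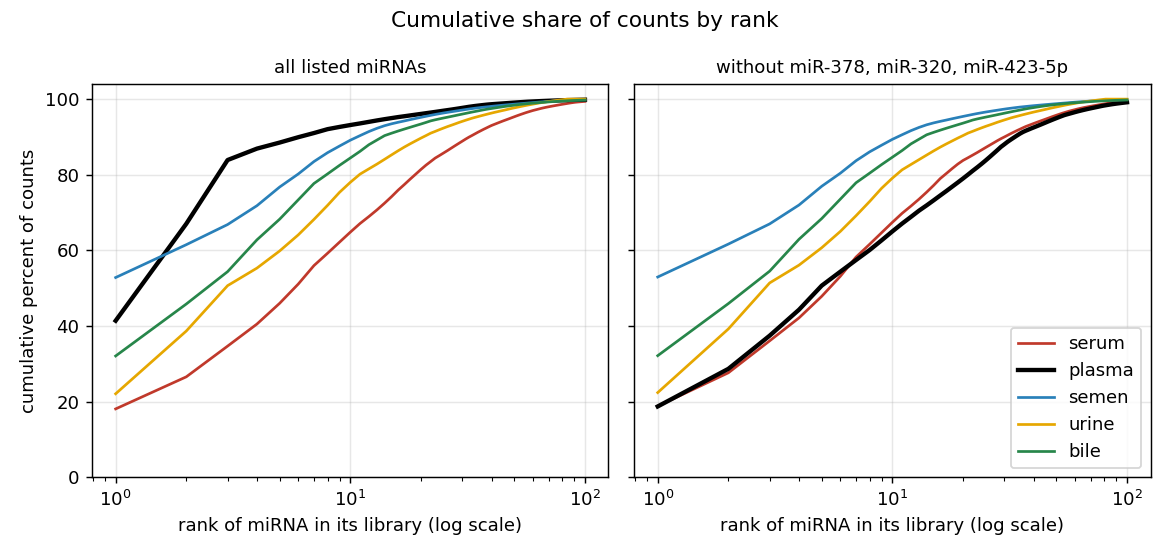
Cumulative percent of miRNA counts (vertical axis) against the rank of the miRNA in its own library (horizontal log axis), 1 line per fluid, with all listed miRNAs on the left and without miR-378, miR-320 and miR-423-5p on the right. The plasma line reaches 83.9% at the third miRNA on the left and runs next to serum on the right, where its 10 leading miRNAs hold 65.0% against 67.4% in serum.

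Abundance fell steeply within the plasma set. Of the 161 miRNAs, 8 had 10000 or more counts and held 92.1% of the library. A further 28 had 1000 to 9999 counts and held 6.31%, 50 had 100 to 999 and held 1.39%, and 75 had 10 to 99 and held 0.245%. Of the last class, 54 were listed at 0 in urine. The 67 plasma miRNAs listed in all 5 fluids held 92.8% of the plasma counts.

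**Figure D2:**
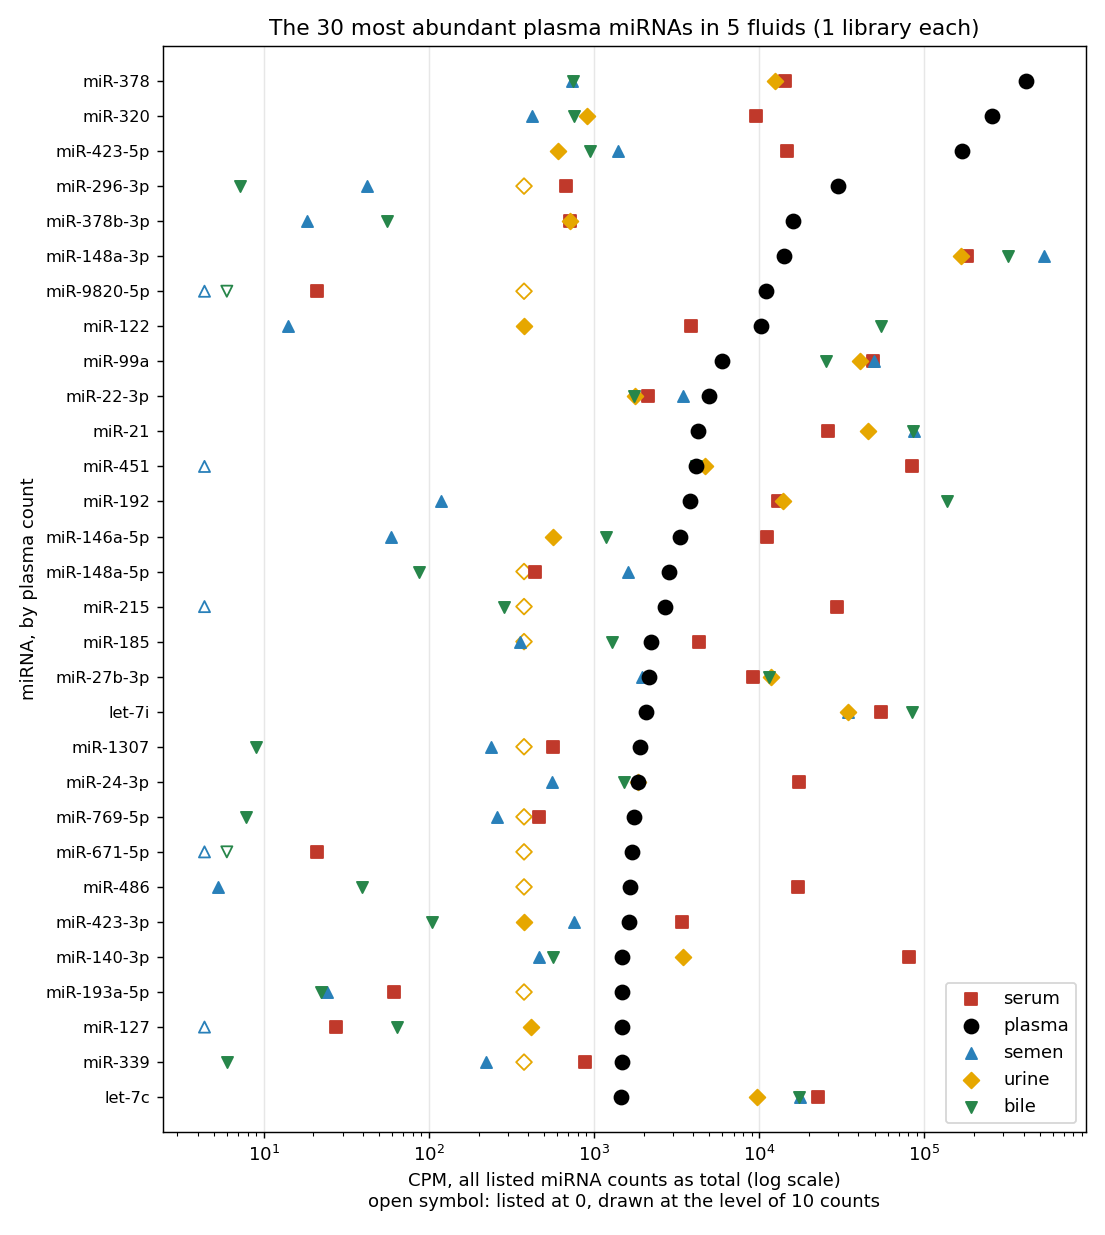
The 30 most abundant plasma miRNAs (vertical axis, by plasma count) with their CPM on all listed counts (horizontal log axis) in each of the 5 libraries, 1 symbol per fluid, and open symbols for values listed at 0 and drawn at the level of 10 counts. The black plasma points of miR-378, miR-320, miR-423-5p, miR-296-3p, miR-378b-3p and miR-9820-5p lie to the right of all other fluids, while those of miR-148a-3p, miR-99a, miR-21, let-7i and let-7c lie to the left of all of them.

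Of the plasma remainder, 18.7% was miR-296-3p and 9.95% was miR-378b-3p. The next were miR-148a-3p at 8.78%, miR-9820-5p at 6.86% and miR-122 at 6.37%. miR-296-3p comes from the imprinted GNAS locus. It stood at 187237 remainder CPM in plasma, 706 in serum, 42.6 in semen and 7.19 in bile, and was listed at 0 in urine. Its 5p arm was listed at 0 in all 5 fluids. miR-9820-5p, whose gene lies within SIL1, stood at 68568 remainder CPM in plasma and 22.0 in serum, from 10 serum counts, and was listed at 0 in semen, urine and bile. miR-378b-3p, whose gene lies within RGS3, stood at 99498 in plasma, 745 in serum, 727 in urine, 55.7 in bile and 18.4 in semen. These 3 miRNAs were more than 10 times higher in plasma than in any other fluid on either total.

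Behind them came a tier of less abundant miRNAs with a similar profile. miR-671-5p, known for cleaving the antisense circular RNA of the CDR1 locus, stood at 10527 remainder CPM in plasma and 22.0 in serum, and was listed at 0 elsewhere. miR-127, encoded antisense to the imprinted retrotransposon gene RTL1, stood at 9193 in plasma, against 28.6 in serum, 64.7 in bile and 421 in urine, and was listed at 0 in semen. miR-193a-5p stood at 9198 in plasma, 63.8 in serum, 24.1 in semen and 22.2 in bile, and was listed at 0 in urine. miR-129b stood at 8697 in plasma, 90.1 in serum and 44.3 in bile, and was listed at 0 in semen and urine. Each of these 4 was highest in plasma on all counts as well.

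miR-1307, miR-769-5p and miR-339 had a shared profile with a smaller distance to serum. Over serum the remainder ratio was 20.1 for miR-1307 (17.7 to 22.9), 22.6 for miR-769-5p (19.6 to 26.1) and 9.87 for miR-339 (8.87 to 11.0). Over semen it was 49.5, 41.8 and 41.2, and over bile 1321, 1396 and 1522, from 15, 13 and 10 bile counts. miR-339 is listed beside miR-339-5p and miR-339-3p, so part of its reads could have been counted under another name. miR-22-3p, which is abundant in many tissues, was listed in every fluid. On the remainder it was at least 8.88 times higher in plasma than in any other. It stood at 30855 remainder CPM in plasma, 3474 in semen, 2205 in serum, 1797 in urine and 1764 in bile. The distance was smaller on all counts. There its mean log2 ratio to the other 4 fluids was 1.18, against 3.80 on the remainder.

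Of the 86 miRNAs with at least 100 plasma counts, the 10 leaning most towards plasma, by the mean log2 ratio of the remainder CPM to the other 4 fluids, were miR-9820-5p with 11.63, miR-296-3p with 10.94, miR-320 with 10.25, miR-378 with 9.65, miR-378b-3p with 9.34, miR-423-5p with 9.12, miR-671-5p with 8.92, miR-127 with 7.74, miR-129b with 7.42 and miR-193a-5p with 7.26. These are differences of levels on the log2 scale. The median over all 161 plasma miRNAs was 1.64, and -0.98 on all counts.

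At the other end the 10 leaning away from plasma were let-7f with -3.81, miR-10b with -3.68, miR-26a with -3.66, miR-10a-5p with -3.50, let-7a with -3.24, miR-30a-5p with -2.84, let-7g with -2.49, miR-30d with -2.25, let-7i with -1.94 and miR-148a-3p with -1.63. Of these 10, 4 are let-7 members, 2 belong to the miR-10 family and 2 to the miR-30 family. All 10 were lower in plasma than in every other fluid on the remainder. The distance was small in single fluids, as for miR-30a-5p at 2626 remainder CPM in plasma and 3359 in serum, and for miR-10b at 1276 in plasma and 2011 in bile. miR-26a stood at 1916 remainder CPM in plasma and at 12551 or more in each other fluid.

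Compared with serum, the blood fluid after clotting, the plasma set was mostly lower on all counts. On the remainder more of it was higher than lower. With all counts as the total, 31 of the 161 plasma miRNAs were at least 2-fold higher in plasma, where 15.3% of all 202 names listed in either fluid passed that limit, and 104 were at least 2-fold lower, where 71.8% passed. On the remainder 71 were higher, beside 35.1% of all names, and 45 were lower, beside 28.2%. Among the 139 listed in both fluids the log2 ratio of plasma over serum had a median of -2.57 on all counts and 0.01 on the remainder. Over all 161, with values listed at 0 set to 10 counts, the medians were -2.09 and 0.48. Of the 22 listed at 0 in serum, all 22 were higher on the remainder by at least 2-fold, which follows from a plasma count of 10 or more being worth more than 10 serum counts there.

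Against semen, 80 plasma miRNAs were at least 2-fold higher on all counts (36.9% of 217 names) and 56 lower (41.5%). On the remainder these numbers were 112 (51.6%) and 29 (18.9%). Against bile, 65 were higher on all counts (30.5% of 213 names) and 70 lower (46.5%), and on the remainder 101 were higher (47.4%) and 29 lower (18.8%). Against urine, 21 were higher on all counts (12.2% of 172 names) and 54 lower (37.8%), and on the remainder 47 (27.3%) and 30 (23.8%). In semen 43 of the plasma miRNAs were listed at 0, and in bile 34. All of these counted as higher in plasma on the remainder, and 42 and 31 of them on all counts. On the remainder this follows from the value set for a listed 0, as against serum. Among names listed in both fluids, 69 were higher than in semen on the remainder and 67 than in bile. On all counts these numbers were 38 and 34. Every name counted as lower was listed in both fluids. In urine 88 of the plasma miRNAs were listed at 0. Of these, 12 on all counts and 25 on the remainder still counted as higher in plasma, and the others could not be placed. Of the 2 totals used here, the remainder was the one on which most of the plasma set stood above bile. Names listed at 0 in plasma cannot count as higher there, so every name in the background percentages of higher levels is one of the plasma set, and nothing particular to the set is read from them.

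**Figure D3:**
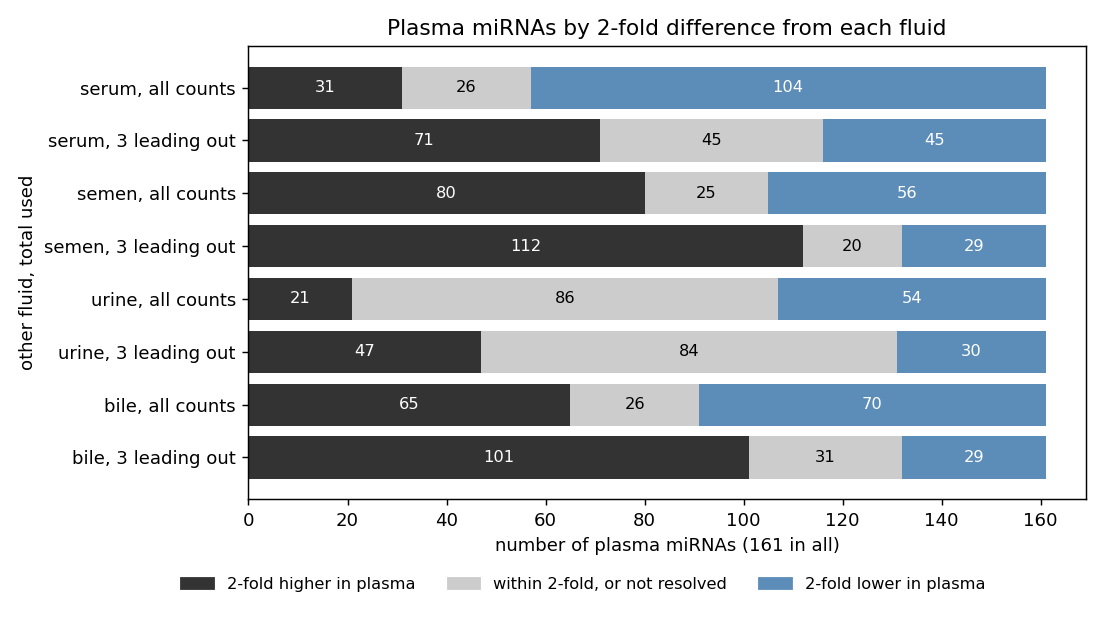
Number of the 161 plasma miRNAs (horizontal axis) at least 2-fold higher in plasma, at least 2-fold lower, or neither, against each other fluid (vertical axis), with all counts as the total and with the 3 leading plasma miRNAs taken out of every total. Against serum the number higher goes from 31 to 71 and the number lower from 104 to 45.

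The order of abundance of plasma miRNAs was most like that of serum. Across miRNAs listed in both fluids, Spearman's rho with plasma was 0.55 for serum over 139 miRNAs, 0.38 for bile over 127, 0.37 for semen over 118 and 0.14 for urine over 73. These values describe the libraries, rest on unequal sets, and do not depend on the total.

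On all counts 17 plasma miRNAs were higher than in any other fluid, beside 7.17% of the 237 names listed anywhere, and 41 were listed in every fluid and lowest in plasma, beside 18.6% of names. On the remainder 48 were highest in plasma, beside 20.3%, and 27 lowest, beside 11.4%. The 17 were miR-378, miR-320, miR-423-5p, miR-296-3p, miR-378b-3p, miR-9820-5p, miR-22-3p, miR-148a-5p, miR-1307, miR-769-5p, miR-671-5p, miR-193a-5p, miR-127, miR-339, miR-129b, miR-326 and miR-1306-3p. They were named after their values were seen. miR-326 lies within ARRB1 and miR-1306-3p within DGCR8, the gene of the RNA-binding partner of Drosha.

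Members of the let-7 family, which restrain growth genes such as HMGA2 and LIN28, were low in plasma. All 9 names of the list were present. On the remainder all 9 were at least 2-fold lower than in serum, beside 28.2% of all names. Likewise 7 of 9 were lower than in semen, beside 18.9%, 7 than in urine, beside 23.8%, and 7 than in bile, beside 18.8%. let-7d-3p alone was at least 2-fold higher than in semen (51.6% of all names) and bile (47.4%). It stood at 118 remainder CPM in plasma, 39.5 in semen and 50.3 in bile. The family took 3.21% of the plasma remainder, against 21.6% in serum, 21.7% in bile, 12.5% in urine and 10.4% in semen. Its median log2 ratio to the mean of the other fluids was -2.49, beside 1.64 for the whole plasma set. The family median was below 0 on every scaling tried. The median of the whole set includes lower bounds, from names not listed in some fluids. let-7i led the family in plasma with 39.9% of its counts, followed by let-7c with 28.1%, against 26.4% and 11.0% in serum. let-7f held 7.85% of the family in plasma and 24.4% in serum. Reads of let-7 members that differ by single bases may have been counted under one another.

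The miR-30 family showed the same direction as a sum. Of its 10 names 9 were listed in plasma. On the remainder 5 were at least 2-fold lower than in serum (28.2% of all names), 6 than in semen (18.9%), 8 than in urine (23.8%) and 5 than in bile (18.8%). In the other direction, 2 were at least 2-fold higher than in serum (35.1%), 1 than in semen (51.6%), 0 than in urine (27.3%) and 1 than in bile (47.4%). The sum was 0.683% of the plasma remainder, against 2.78% in serum, 2.56% in semen, 2.81% in bile and 28.0% in urine. miR-30a-5p had 488 counts in plasma and miR-30d 482, and miR-30c-5p had 14.

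The miR-10 family, which here includes miR-99, miR-100 and miR-125, was uneven in plasma. It took 4.68% of the remainder, against 6.50% in serum, 15.5% in semen, 21.5% in urine and 3.77% in bile. miR-99a held 78.6% of the family in plasma, close to the 78.2% of serum, and stood at 36824 remainder CPM, against 50856 in serum and 25414 in bile. On all counts miR-99a was lowest in plasma, at 5930 CPM, and the family took 0.754% there, against 3.76% in bile. miR-100 was highest in plasma on the remainder, at 6905 against 5175 in bile and 2405 in serum, but on all counts it stood at 1112 CPM in plasma, below 5162 CPM in bile, 2312 CPM in serum and 1244 CPM in urine. miR-10a-5p and miR-10b, encoded within the HOX clusters, held 2.88% and 2.72% of the family in plasma, against 34.4% and 32.1% in semen.

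Erythrocyte miRNAs were present in plasma but lower than in serum as a sum. All 7 names of the list were listed, and they took 5.44% of the plasma remainder, against 14.8% in serum, 1.32% in urine, 0.795% in bile and 0.176% in semen. On all counts the plasma sum was 0.876%, below the 1.30% of urine as well. miR-451, made by Ago2 without Dicer and abundant in red blood cells, stood at 25699 remainder CPM in plasma and 88212 in serum. miR-185, the next most abundant, stood at 13783 in plasma and 4478 in serum, but on all counts at 2220 CPM and 4305 CPM. On the remainder 2 of 7 were at least 2-fold higher than in serum, beside 35.1% of all names, and 3 at least 2-fold lower, beside 28.2%. On all counts 0 were higher and 5 lower, beside 15.3% and 71.8%. miR-451 counts were 10.1 times those of miR-23a in plasma (9.22 to 11.2), 6.81 times in serum (6.63 to 7.00), 12.4 times in bile (11.4 to 13.6) and 10.3 times in urine (5.71 to 20.5). The part of red blood cell RNA in the plasma levels of other miRNAs was not tested.

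Leukocyte miRNAs took 2.41% of the plasma remainder and 2.56% of the serum remainder, against 0.222% in bile, 0.142% in urine and 0.0168% in semen. Of 11 names 9 were listed. miR-146a-5p, which dampens Toll-like receptor signalling, made up 85.7% of the list in plasma and 45.6% in serum, and stood at 20646 remainder CPM in plasma against 11684 in serum. On all counts the order turned, at 3325 CPM in plasma and 11233 CPM in serum. miR-181a followed in plasma with 195 counts. miR-342 and miR-150, known from lymphocytes, stood at 108 and 199 remainder CPM in plasma, against 6529 and 2216 in serum. Of the 9 members, 4 were at least 2-fold lower than in serum on the remainder, beside 28.2% of all names, and 0 at least 2-fold higher, beside 35.1%. On all counts 9 of 9 were lower, beside 71.8% of names, and the sum was 0.388% in plasma against 2.46% in serum.

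The platelet list, of which miR-24-3p and miR-191 were the most abundant in plasma, took 1.49% of the plasma remainder and 2.98% of the serum remainder. Of its 6 names 4 were listed in plasma, and 2 were at least 2-fold lower than in serum on the remainder, beside 28.2% of all names, and 4 on all counts, beside 71.8%. The planned miR-223 and miR-197 gave no name in the list, which holds arms of miR-24, miR-191 and miR-126. miR-24-3p made up 77.2% of the list in plasma and is counted again below with the miR-23, miR-24 and miR-27 clusters. miR-126 is also a marker of endothelium. miR-126-3p stood at 1189 remainder CPM in plasma and 4623 in serum. The endothelial list, led by miR-221-3p and miR-126-3p, took 0.402% in plasma and 0.592% in serum.

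The liver list was the largest of the tissue lists in plasma. It took 8.74% of the plasma remainder, against 19.7% in bile, 1.78% in serum, 1.59% in urine and 0.0154% in semen. On all counts it took 1.41% in plasma, below the 1.71% of serum and the 1.57% of urine, so its order against both turns with the total. miR-122, the main hepatocyte miRNA, gave 72.9% of the list in plasma and stood at 63702 remainder CPM, against 54807 in bile, 4049 in serum, 382 in urine and 14.0 in semen. On all counts miR-122 was lower in plasma than in bile, at 10259 against 54673 CPM, so its order between these fluids depends on the total. Plasma held 2.70 counts of miR-122 per count of miR-192 (2.61 to 2.80), against 0.398 in bile (0.395 to 0.401), 0.298 in serum (0.283 to 0.314), 0.119 in semen and 0.0270 in urine. This ratio does not depend on the total, and plasma was the single fluid in which miR-122 exceeded miR-192. miR-192 exceeded its relative miR-215 by 1.42 times in plasma (1.35 to 1.48) and by 483 times in bile, and was 0.443 times miR-215 in serum. miR-194a, encoded beside miR-192, had 16 counts in plasma and 7450 in bile, and both arms of miR-885 were listed at 0 in plasma.

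Striated muscle miRNAs took 0.427% of the plasma remainder, against 0.266% in serum, 0.328% in bile and 1.10% in urine. On all counts the order against serum and bile turned, at 0.0688% in plasma, 0.256% in serum and 0.328% in bile. miR-206, specific to skeletal muscle, led the list in plasma at 2352 remainder CPM, against 4321 in urine, 565 in serum and 103 in bile, and was listed at 0 in semen. On all counts miR-206 was lower in plasma than in serum, at 379 CPM against 543 CPM. On the remainder, miR-133a-3p stood at 727 and miR-133b at 694 in plasma, against 824 and 490 in serum, and both were listed at 0 in semen, urine and bile. miR-1, shared with heart muscle, stood at 226 in plasma and 2892 in bile.

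Smooth muscle miRNAs took 0.624% of the plasma remainder, against 0.236% in serum, 0.314% in urine and 2.30% in bile. On all counts they took 0.1005% in plasma, 0.227% in serum and 0.309% in urine. miR-143-3p stood at 4925 remainder CPM in plasma, 2110 in serum and 22734 in bile, and miR-143-5p at 775 in plasma. For miR-143-3p too the order against serum turned on all counts, at 793 CPM in plasma and 2029 CPM in serum. Fibroblast miRNAs, led by miR-199a-3p and miR-199a-5p, took 0.332% in plasma, 0.0934% in serum and 0.579% in bile on the remainder, but 0.0535% in plasma and 0.0898% in serum on all counts, and miR-214 was listed at 0 in plasma. The kidney list, led by miR-30a-5p and miR-30a-3p, took 0.270% in plasma and 23.7% in urine, and its marker miR-204 was listed at 0 in plasma. Of the epithelial names miR-205 had 24 plasma counts and miR-429 none listed.

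The miR-17-92 cluster and its paralogs, known for promoting cell proliferation, took 0.660% of the plasma remainder and 3.93% of that of serum. Their most abundant plasma members were miR-92a with 630 counts and miR-20a with 179. The miR-23, miR-24 and miR-27 clusters took 3.18% in plasma and 4.72% in serum, led in plasma by miR-27b-3p with 2493 counts and miR-24-3p with 2141. miR-23b, encoded beside miR-27b, had 17 plasma counts. Of the miR-15 and miR-16 family, miR-16 was the one name of 8 listed in plasma, with 42 counts against 1221 in serum. miR-484, which like miR-320 is made without Drosha, was listed at 0 in all 5 fluids.

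**Figure D4:**
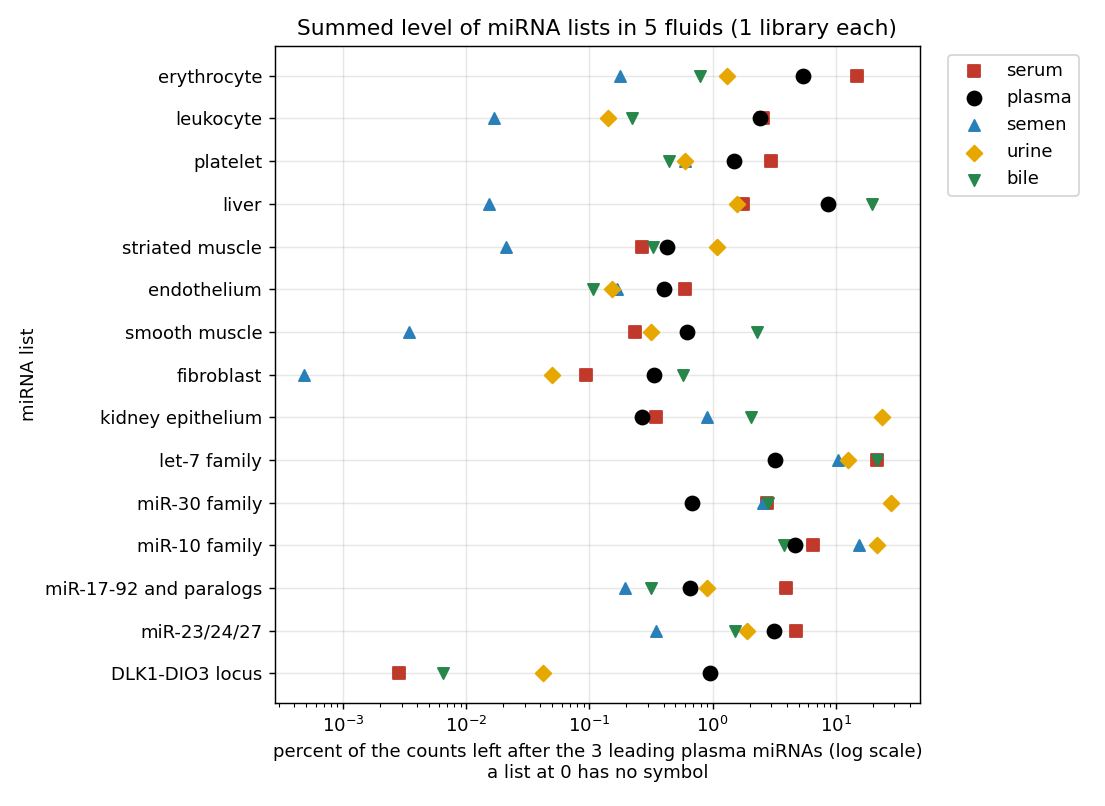
Summed level of 15 lists of miRNAs (vertical axis) as a percent of the counts left without miR-378, miR-320 and miR-423-5p (horizontal log axis), 1 symbol per fluid. The plasma points of the let-7 and miR-30 families lie below those of all other fluids, at 3.21% and 0.683%, and that of the DLK1-DIO3 locus lies above them at 0.962%.

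The imprinted DLK1-DIO3 locus encodes a large miRNA cluster. Of 20 names from it 3 were listed in plasma: miR-127 with 1708 counts, miR-370 with 44 and miR-382 with 35. miR-370 and miR-382 were listed in plasma and in no other fluid, while miR-136 and both arms of miR-432, whose genes lie within 10 kb of that of miR-127, were listed at 0 in all fluids. The locus took 0.962% of the plasma remainder, against 0.0421% in urine, 0.00647% in bile and 0.00286% in serum, and 0 counts were listed in semen.

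The plasma library also differed in the arms kept from a precursor, a measure that is taken within a library and does not depend on the total. Of 78 precursors for which both arms are named in the table, 50 had a count in plasma and 23 had both arms listed there. For miR-148a, which targets DNA methyltransferase 1, the 5p arm had 3301 counts in plasma beside 16309 of the 3p arm, a share of 16.8% (16.3 to 17.4). Its share was 0.243% in serum (0.211 to 0.278), 0.305% in semen (0.295 to 0.315) and 0.0270% in bile (0.0228 to 0.0318). In urine the 5p arm was listed at 0, and 9 reads would give 0.204%. The plasma share thus lay far above those of the other fluids, and miR-148a-5p was itself highest in plasma, at 17766 remainder CPM against 1620 in semen and 457 in serum, while miR-148a-3p was lowest there.

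For miR-423 the 5p arm took 99.0% of the counts in plasma, 90.1% in bile (88.6 to 91.4), 81.1% in serum (80.2 to 81.9), 64.7% in semen and 61.5% in urine (40.6 to 79.8). The 3p arm, with 1879 plasma counts, stood at 10113 remainder CPM in plasma and 3566 in serum, but on all counts at 1629 CPM in plasma and 3428 CPM in serum. miR-423-5p, by contrast, was highest in plasma on all counts. For miR-671 the 5p arm took 98.6% in plasma (98.0 to 99.1) and 47.6% in serum (25.7 to 70.2), from 10 and 11 serum counts, and in semen 85 counts were of the 3p arm with the 5p arm listed at 0.

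In several other precursors the 3p arm had a larger part in plasma than in the other fluids. The 5p arm of miR-139 took 27.3% in plasma (16.1 to 41.0), from 15 and 40 counts, against 94.5% in serum (92.7 to 95.9) and 91.1% in bile (86.4 to 94.7). For miR-142, a blood cell miRNA, it took 42.4% in plasma (36.2 to 48.9), 66.0% in serum (62.5 to 69.4) and 86.4% in bile (80.9 to 90.9). For miR-425 it took 35.7% in plasma (29.4 to 42.4), 69.5% in serum, 74.7% in bile and 83.1% in semen, with no overlap of the plasma interval with the others. For miR-361 it took 6.76% in plasma (3.75 to 11.1), 31.5% in serum, 35.1% in semen and 77.1% in bile.

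Some arms were listed in plasma and nowhere else. miR-17-3p had 68 counts beside 100 of miR-17-5p in plasma, and was listed at 0 in serum, where 529 counts of the 5p arm would allow it at most 1.67%, in bile (3.18%) and in semen (6.77%). miR-143-5p had 144 counts, 13.6% of both arms (11.6 to 15.8), and was listed at 0 beside 37946 counts of the 3p arm in bile. miR-133a-5p had 20 counts, 12.9% of both arms, against at most 2.34% in serum. The arms of miR-30a differed little in size of share, with a 5p share of 97.4% in plasma (95.6 to 98.6) and 95.4% to 96.5% in the other fluids, of which bile at 95.4% (95.1 to 95.6) lay just below the plasma interval. For miR-22 the 5p share was 6.77% in plasma (6.15 to 7.42) and 5.82% in serum (4.49 to 7.40), while semen at 3.74% (3.34 to 4.18) and bile at 9.25% (8.27 to 10.3) lay on either side without overlap.

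Over all precursors with both arms listed in plasma and in serum, 17 in number, the plasma 5p share lay above that of serum without overlap of intervals in 6, below it in 5, and overlapped in 6. Against bile it was above in 5 of 16, below in 8 and overlapping in 3, and against semen above in 6 of 13, below in 6 and overlapping in 1. The shifts went to either arm. Where several genes give the same mature name, the 2 arms need not come from the same gene.

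**Figure D5:**
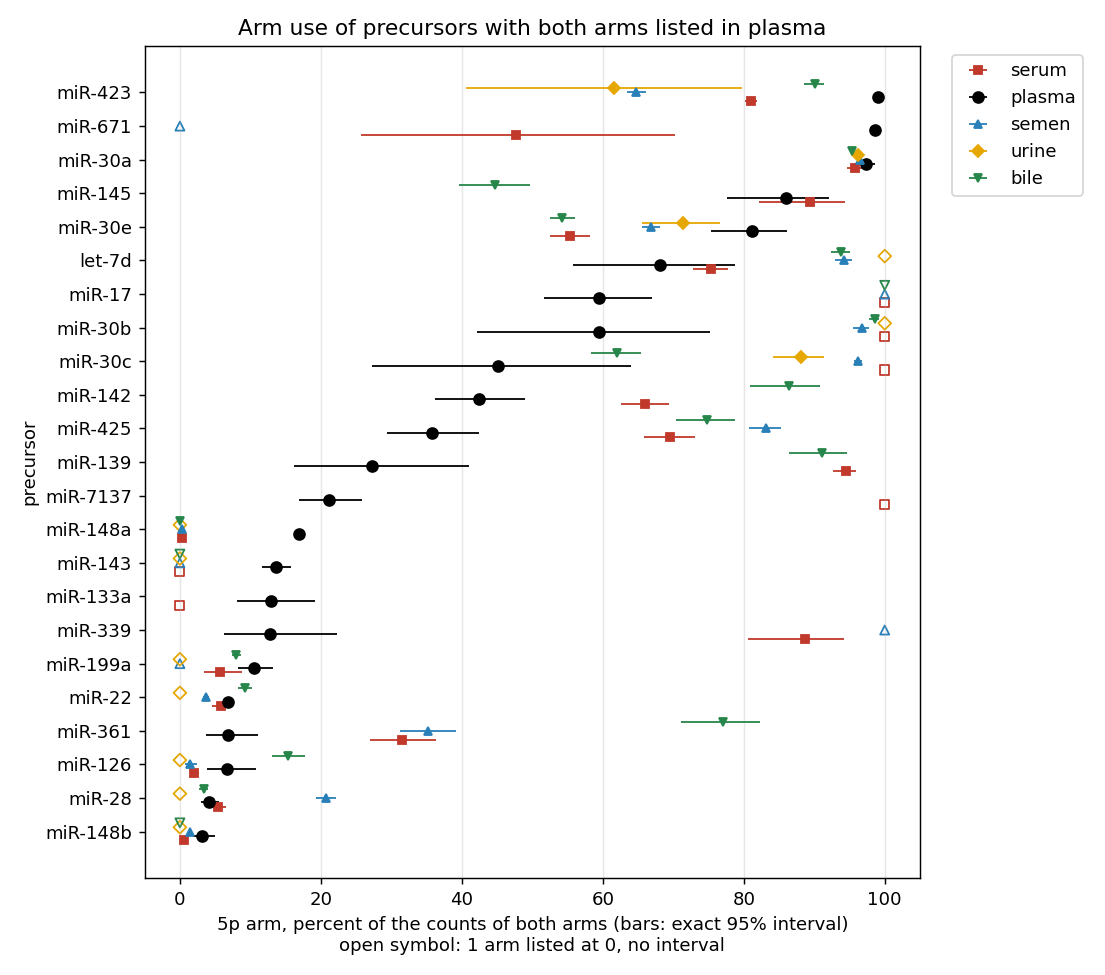
The 5p arm as a percent of the counts of both arms (horizontal axis) for the 23 precursors with both arms listed in plasma (vertical axis), 1 symbol per fluid, with exact 95% intervals as bars and open symbols without interval where 1 arm was listed at 0. The plasma points of miR-148a, miR-139, miR-142, miR-425 and miR-361 stand apart from the other fluids, while that of miR-22 lies between semen and bile.

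There were 13 names listed in plasma alone, which together took 0.0945% of its counts. They were miR-7137-3p with 272 counts, miR-143-5p with 144, miR-7139-3p with 142, miR-9860-5p with 105, miR-491 with 98, miR-7143-3p with 82, miR-17-3p with 68, miR-2366 with 47, miR-370 with 44, miR-382 with 35, miR-133a-5p with 20, miR-452 with 20 and miR-7857-3p with 13. Among them miR-143 is a smooth muscle miRNA and miR-133a one of striated muscle. On the remainder these names ran from 70.0 CPM to 1464 CPM in plasma. In urine 10 counts correspond to 382 CPM on the remainder, so the scarcer of them could not have been seen there at their plasma level. On all counts 10 urine counts correspond to 377 CPM, and none of them could have been seen there. miR-133a-5p, miR-452 and miR-7857-3p also lay below 10 serum counts, or 21.1 CPM, on all counts.

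Of the names with a number of 2000 or more, which include miRNAs named from pig and other livestock libraries, 15 of 117 were listed in plasma, against 13 in serum, 10 in semen, 7 in bile and 2 in urine. This grouping was chosen after the values were seen. They took 8.28% of the plasma remainder, and 1.52% without miR-9820-5p, against 0.596% in serum, 0.164% in urine, 0.156% in bile and 0.0861% in semen. On the remainder 10 of the 15 were highest in plasma, beside 48 of all 161 plasma miRNAs and 20.3% of all names. On all counts they took 1.33% in plasma and 0.573% in serum. There miR-9820-5p was the only one of the 15 highest in plasma, beside 7.17% of all names. miR-7134-3p, whose gene lies within TNRC6B, was the second most abundant, at 6819 remainder CPM in plasma and 2746 in serum, but on all counts at 1098 CPM in plasma and 2640 CPM in serum.

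A total of 76 names were listed in another fluid and at 0 in plasma. They made up 0.445% of the serum counts, 0.927% of semen, 1.55% of urine and 0.471% of bile. The 10 with the highest CPM elsewhere were miR-204 with 4713 CPM in urine, miR-135 with 2713 in semen, miR-450c-5p with 2074 in urine, miR-9 with 1433 in urine, miR-676-3p with 1386 in semen, miR-196b-5p and miR-1285 with 1357 each in urine, miR-574 with 1143 in serum, miR-429 with 1093 and miR-4331 with 1056 in urine. At the remainder level of their highest fluid, 42 of the 76 would have had 10 or more counts in plasma and 14 would have had 100 or more. For the other 34 the plasma library could not have shown them at that level on the remainder. On all counts 10 plasma counts correspond to 8.67 CPM, and most of these 34 lay above that in their highest fluid. Below it were miR-497, miR-371-5p, miR-532-3p, miR-4332, miR-374b-3p and miR-202-5p. miR-574 would have had 221 counts at its serum level. miR-9 is listed beside miR-9-2, a name of the plasma set, so part of its reads could have been counted under that name.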

How the data were processed

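Exosomes were isolated with a reagent and their RNA with Trizol, and size-selected small RNA was made into libraries and sequenced, per the labels' protocols. The labels name 2 Illumina instruments. The submitters' processing notes name bcl2fastq 2.17 and the build Sscrofa10.2. Not given in the sources used here are the aligner, the annotation and the counting of reads that match several names. The authors deposited, per library, a read count and a normalized value for 411 names. Counts divided by that value gave 1 constant per library within 0.005%, so it was taken as RPM, computed by the authors against a library total of 7207788 reads in plasma and 10555126 to 10801967 in the others.

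From the counts, CPM, Clopper-Pearson intervals of shares and exact conditional binomial intervals of ratios were computed with Python 3.11.15 and scipy 1.17.1, and tested on simulated counts. A difference was counted at 2-fold. A listed 0 was set to 10 counts. Background percentages cover all names listed in either fluid. No test was possible with 1 library per fluid. edgeR 4.0.16 TMM and DESeq2 1.42.0 size factors were used for scaling alone. Other alternatives were the authors' RPM, a 4-fold limit, 100 plasma counts and a floor of 3 counts. The planned sequence features were not analysed here, as no sequences were at hand.

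The members and lists were chosen with earlier results of these data known. Named are the 30 most abundant plasma miRNAs, the 10 leaning most towards and most away from plasma among those with 100 counts, the 10 names listed at 0 in plasma with the highest CPM elsewhere, the plasma-only names, the names at the lowest count and the 2 most abundant members of each list. Other names were chosen after their values were seen.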

Additional observations from a re-analysis of the deposited data

How the results depend on the processing

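The counts of plasma miRNAs past 2-fold moved with the scaling of the plasma library. With TMM 87 were higher and 31 lower than in serum, and DESeq2 size factors gave 87 and 31 as well. On the authors' RPM 54 were higher and 61 lower than in serum. Against semen 30 were lower with TMM and 31 with DESeq2 size factors. Against urine 70 were higher and 28 lower with TMM, 59 and 30 with DESeq2 size factors, while the authors' RPM gave 132 and 8. Against bile 35 were lower with TMM, and 102 higher and 29 lower with DESeq2 size factors. On the authors' RPM 69 were higher and 62 lower than in semen, and 65 higher and 70 lower than in bile. Without the 3 leading miRNAs in any total, 71 were higher and 45 lower than in serum, 29 lower than in semen, 47 higher and 30 lower than in urine, and 101 higher and 29 lower than in bile. The number highest in plasma went from 17 to 48 without the 3 leading miRNAs, 62 with TMM, 58 with DESeq2 size factors or 50 on RPM, and the number lowest in plasma from 41 to 27, 20, 21 and 14. With at least 100 plasma counts, 54 were lower than in serum, 47 higher and 26 lower than in semen, 33 lower than in urine, 40 higher and 33 lower than in bile, and 25 lowest in plasma, since fewer miRNAs entered. At a 4-fold limit 19 were higher than in serum. Of the whole plasma library, in RPM terms, miR-378, miR-320 and miR-423-5p took 13.4%. Among 55 named miRNAs, 3 that were at least 2-fold lower on all counts changed direction relative to the mean of the other fluids. miR-27b-3p came to a log2 ratio of 0.91 without the 3 leading miRNAs, 1.21 with TMM, 1.19 with DESeq2 size factors, and 0.17 for RPM. miR-218b came to 0.77, 1.07, 1.05 and 0.026 in the same order, and miR-99a to 0.17 with TMM and 0.15 with DESeq2 size factors. Some names less than 2-fold lower on all counts changed sign as well. The log2 ratio of miR-192 was -0.96 on all counts and 1.66 on the remainder. For miR-24-3p these values were -0.30 and 2.32, and for miR-140-3p -0.98 and 1.64. For miR-133a-5p and miR-452 they were -0.30 and 2.31, and for miR-7857-3p -0.92 and 1.69. No paired analysis was possible because each fluid has 1 library. The weighted GC content was not run, as no sequences were at hand.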
